A study of Mus musculus with 20 samples.

Results

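The transcripts described here are those of 5 muscle ubiquitin ligases (Fbxo32, Trim63, Fbxo30, Fbxo21 and Nedd4), 3 FoxO transcription factors (Foxo1, Foxo3 and Foxo4), the translation repressor Eif4ebp1 and the caveolar protein Murc, 10 genes out of 31618 in the deposited table. They were chosen by name as genes of muscle wasting and its FoxO control, with earlier results of these data known. A row under the given name was found for 9 of them, and Murc was found under its current symbol, Cavin4. RNA came from the gastrocnemius, a calf muscle, of male C57BL/6N mice in 4 groups of 5 libraries. The groups were tetrathiomolybdate (TM, a copper chelator) together with N-acetylcysteine (NAC, a thiol antioxidant and cysteine donor), TM alone, NAC alone, and Control. The treated libraries are labelled with 28 days of treatment. The labels give no time or vehicle for the controls, and no dose or age for any group. The title of the series puts the question as one of muscle function and reactive oxygen species. Whether the numbered libraries of a group came from different mice is not stated, so all p-values refer to the variation among libraries, part or all of which may be technical.

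Ubiquitin ligases attach ubiquitin to chosen proteins and so mark them for breakdown by the proteasome. In skeletal muscle, Fbxo32 (atrogin-1, the substrate-binding F-box subunit of a cullin ligase) and Trim63 (MuRF1, a RING-finger ligase that binds sarcomeric proteins) are known for rising in many kinds of wasting, such as fasting, denervation and glucocorticoid excess. FoxO factors drive both genes, and insulin and growth factor signalling through AKT phosphorylates FoxO proteins and keeps them out of the nucleus, so FoxO activity is set largely by phosphorylation and location, which mRNA levels do not measure. Fbxo30 (MUSA1) and Fbxo21 (SMART) are F-box proteins that FoxO factors also induce in denervated muscle.

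Between 54.7 and 90.7 M counts (M, 1e6) were recorded per library (median 63.3 M), and mitochondrial transcripts took 13.1% to 20.3% of counts. Genes with a mean of at least 1 FPKM (fragments per kilobase and M) over the 20 libraries were tested, 9696 in all, and all 10 members were among them, with 524 counts or more in every library. Markers of muscle fibres were present as labelled: all 10 of 10 were tested and their summed level was 123000 to 153000 CPM (counts per M after TMM scaling, a trimmed mean normalization) in TM+NAC libraries, 141000 to 165000 in TM, 140000 to 176000 in NAC and 140000 to 166000 in Control. Transcripts of some other tissues differed in level between the groups. In the marker lists of satellite cells, fibroblasts and tendon, endothelium, macrophages and adipocytes, no tested gene passed in any comparison. The summed levels of these lists overlapped between the groups. Of 4 tested neuronal markers 3 passed as higher in TM+NAC than in Control, and 2 in NAC than in Control. Snap25, a neuronal gene, averaged 13 CPM in TM+NAC, 7.51 in TM, 11 in NAC and 1.37 in Control libraries. The sum of the 13 neuronal markers, most of it Camk2a, which muscle also expresses, was 404 to 457 CPM in TM+NAC, 421 to 493 in TM, 366 to 541 in NAC and 386 to 481 in Control. The 5 Schwann cell markers, of which 1 passed as higher in TM+NAC than in Control, summed to 127 to 337 CPM in TM+NAC, 72.8 to 249 in TM, 100 to 251 in NAC and 49.2 to 320 in Control. The 7 astrocyte and oligodendrocyte markers summed to 61.8 to 75.5 CPM in TM+NAC, 48.9 to 79 in TM, 49.7 to 73.2 in NAC and 45.2 to 57.4 in Control, so TM+NAC and Control did not overlap. Of 5 cartilage markers 4 were in the table, and their sum was 17.4 to 29.1 CPM in TM+NAC, 1.9 to 9.46 in TM, 1.36 to 16.8 in NAC and 1.83 to 12.5 in Control, with Col2a1 the leading gene in TM+NAC at a mean of 16 CPM. Col2a1 was below the filter (mean 0.433 FPKM) and was not tested. Comp, the only cartilage marker tested, averaged 6.45 CPM in TM+NAC and 2.36 in Control and did not pass. Sox9 averaged 1.5 and 1.19 CPM in these groups, and Acan 0.432 and 0.585. No listed marker in the table was at 0 in every library. The part of these tissues in the member values below was not tested. NAC library 4 stood apart. It was the deepest library, had the largest mitochondrial share, and held the highest value of all 20 libraries for 28.5% of tested genes and the lowest for 27.0%. Its Snap25 (0.218 CPM) was the lowest of all 20 libraries. The other NAC libraries had 12.7 to 14.7 CPM and the Control libraries 0.666 to 2.24 CPM. TM library 1 stood apart in Snap25, at 0.854 CPM, within the Control range, against 8.64 to 9.76 in the other TM libraries. Without it 12 tested genes passed in TM against Control, and 30 without both libraries, against 0 with all. No member passed in either case.

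No member passed the test in any comparison. With edgeR's quasi-likelihood test and Benjamini-Hochberg adjustment over 9696 genes, 0 of 10 members had an adjusted p under 0.05 in TM+NAC against Control, where 0.351% of tested genes passed. The count was also 0 of 10 in TM against Control (0% of tested genes passed), in NAC against Control (0.217%), in TM+NAC against TM (0.0309%), in TM+NAC against NAC (0.0309%) and for the interaction, which is the effect of TM with NAC present minus its effect without (0.0103%). At an unadjusted p under 0.05 the members numbered 1 in TM+NAC against Control (6.38% of tested genes), 0 in TM against Control (3.37%), 1 in NAC against Control (7.44%), 2 in TM+NAC against TM (5.19%), 1 in TM+NAC against NAC (11.9%) and 0 for the interaction (7.28%). DESeq2, limma on log2(FPKM + 1) and limma voom also called 0 members in each comparison. Over the tested genes the typical (median) standard error of a pairwise log2 fold was 0.12, and a difference that misses the threshold does not show that groups are alike.

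**Figure D1:**
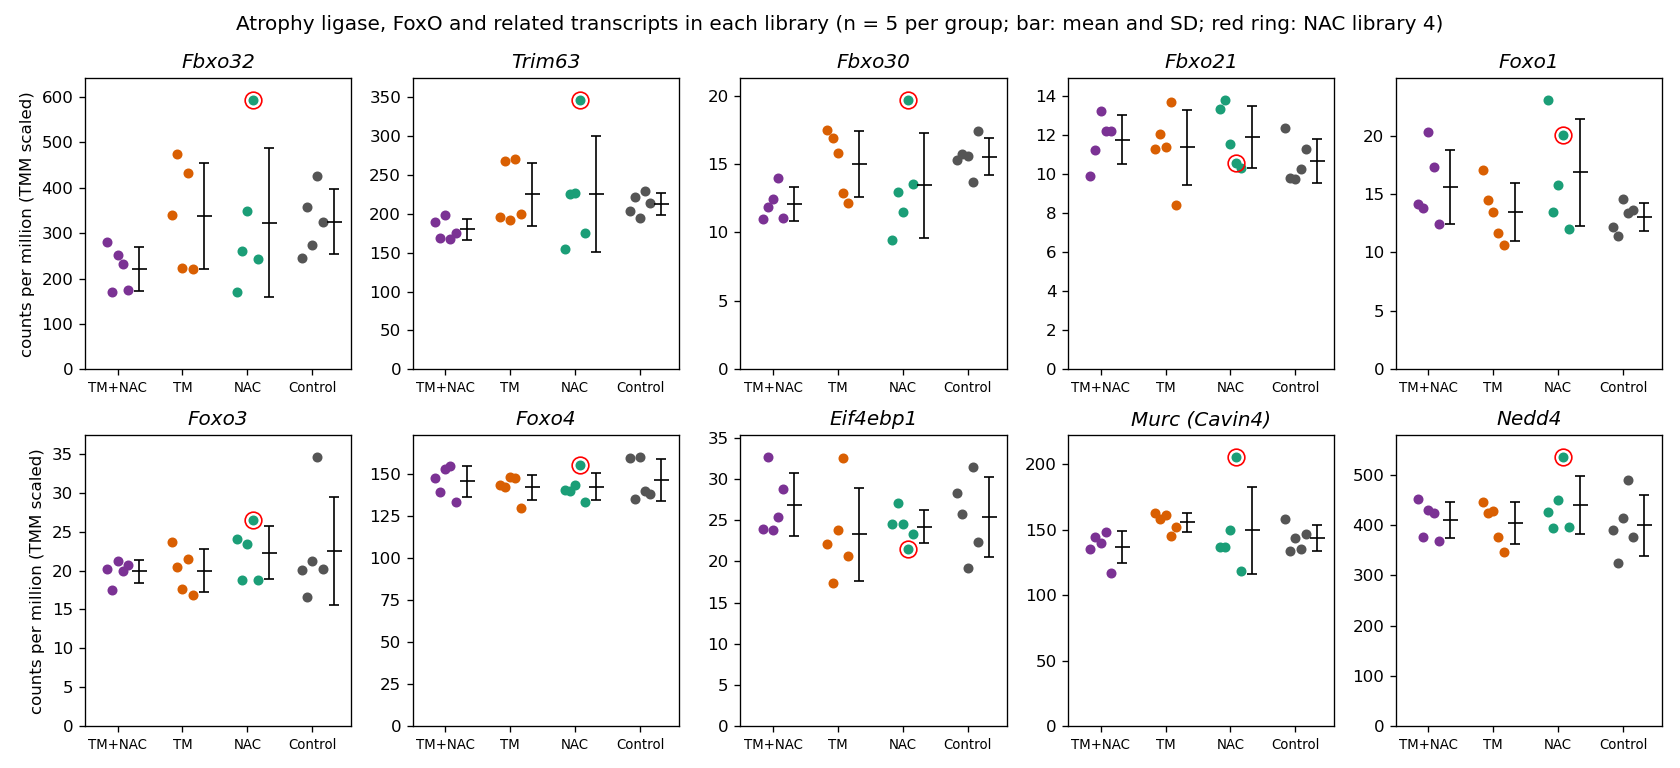
TMM-scaled CPM (y axis, linear, from 0) of each of the 10 genes in the 5 libraries of TM+NAC, TM, NAC and Control (points), with the group mean and SD (bar beside the points) and a red ring on NAC library 4. Fbxo32 averaged 222 CPM in TM+NAC against 326 in Control, and the groups overlap in every panel.

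Fbxo32, on chr15:58175879-58214932 (GRCm38, minus strand), had 279.7, 169.9, 252.8, 231.8 and 175.1 CPM in the TM+NAC libraries. It had 339.2, 474.2, 222.5, 432.9 and 221.6 CPM in TM, 170.5, 260.5, 348.1, 593.7 and 242.7 CPM in NAC, and 246.2, 356.9, 274.7, 426.6 and 324.5 CPM in Control. All 5 TM+NAC libraries lay below the mean of each other group. Below every Control library lay 3 TM+NAC, 2 TM and 2 NAC libraries, and above every Control library lay 2 TM libraries and 1 NAC library, so the groups overlapped. In bulk RNA, fewer cells of a type and less RNA per cell cannot be told apart, here and below. The mean was 222 ± 48.2 CPM in TM+NAC, 338 ± 117 in TM, 323 ± 164 in NAC and 326 ± 70.8 in Control (SD, n = 5 each).

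The log2 fold of Fbxo32 was -0.55 ± 0.27 (SE) for TM+NAC over Control, with a 95% interval of -1.13 to 0.018 and an edgeR adjusted p of 0.805. It was -0.61 ± 0.27 for TM+NAC over TM (interval -1.18 to -0.036, adjusted p 0.939) and -0.54 ± 0.27 for TM+NAC over NAC (interval -1.11 to 0.029, adjusted p 0.413). The log2 fold over Control was 0.053 for TM (interval -0.52 to 0.62) and -0.012 for NAC (interval -0.58 to 0.56), from libraries that spread beyond the Control range on both sides. The NAC values rest on library 4. Without it, the log2 fold of Fbxo32 was -0.34 for NAC over Control and -0.20 for TM+NAC over NAC. An exon of the predicted gene Gm15943 shares 186 bases with Fbxo32 on the opposite strand, and whether counting used strand is not stated. Gm15943 averaged 0.759 FPKM.

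Trim63 has 1 match to the FoxO core motif in its RefSeq promoter window and is shown with it because it moved with Fbxo32 between libraries. The window runs from 250 bases before to 50 bases after the RefSeq start, chr4:134314870-134315169 (GRCm38.p6, plus strand), 5′ to 3′, with the motif TGTTTAC in capitals, 194 bases before the start.
Trim63: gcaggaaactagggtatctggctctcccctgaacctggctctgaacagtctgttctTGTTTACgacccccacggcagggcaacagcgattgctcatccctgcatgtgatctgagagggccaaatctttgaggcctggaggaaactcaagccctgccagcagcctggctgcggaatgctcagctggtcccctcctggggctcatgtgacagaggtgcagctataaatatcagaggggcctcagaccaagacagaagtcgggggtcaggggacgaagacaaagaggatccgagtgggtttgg
The motif was searched on both strands as TGTTTAC and its reverse complement GTAAACA. Windows of 7 members were in the RefSeq promoter table (Trim63, Fbxo30, Fbxo21, Foxo1, Foxo3, Murc and Nedd4), and 1 of the 7, Trim63, held it. Of all 32851 windows of 300 bases in that table, 1199 (3.65%) held it. A match describes the letters and is no evidence of binding.

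Trim63, on chr4:134315120-134329629 (plus strand), had 188.8, 169.4, 198.0, 167.4 and 175.1 CPM in TM+NAC libraries. It had 196.3, 267.2, 191.4, 270.3 and 199.0 CPM in TM, 154.4, 225.7, 226.1, 346.2 and 175.2 CPM in NAC, and 203.2, 220.9, 194.0, 229.5 and 213.7 CPM in Control. All 5 TM+NAC libraries lay below the means of the other groups and 4 lay below every Control library, but 1 overlapped the Control range. TM+NAC (180 ± 13.2 CPM) and Control (212 ± 14 CPM) were tight groups, while TM (225 ± 40.2) and NAC (226 ± 74.4) were spread out (SD, n = 5 each).

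The log2 fold of Trim63 was -0.24 ± 0.16 for TM+NAC over Control (interval -0.57 to 0.087, edgeR adjusted p 0.97). It was -0.32 ± 0.16 over TM (interval -0.65 to 0.004, adjusted p 0.939) and -0.33 ± 0.16 over NAC (adjusted p 0.41). Without NAC library 4 the last value was -0.12. The log2 folds of TM over Control (0.083, interval -0.24 to 0.41) and of NAC over Control (0.088, interval -0.24 to 0.41) did not pass, and the value for NAC was -0.11 without library 4. The interaction was -0.60 ± 0.39 for Fbxo32 and -0.41 ± 0.22 for Trim63 on the log2 scale (adjusted p 0.604 and 0.597), and without NAC library 4 these became -0.26 and -0.21.

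Fbxo30, on chr10:11281330-11298052 (plus strand), had the smallest unadjusted p of the members in TM+NAC against Control. It had 10.95, 11.84, 12.46, 13.99 and 11.07 CPM in TM+NAC, 17.51, 16.87, 15.78, 12.87 and 12.13 CPM in TM, 9.48, 12.98, 11.52, 19.68 and 13.56 CPM in NAC, and 15.29, 15.71, 15.56, 13.69 and 17.44 CPM in Control. In TM+NAC, 4 of 5 libraries lay below every Control library, and so did 4 of 5 NAC libraries, with NAC library 4 above all controls. The log2 fold was -0.37 ± 0.15 for TM+NAC over Control (interval -0.68 to -0.055, unadjusted p 0.0231, edgeR adjusted p 0.623) and -0.32 ± 0.15 for TM+NAC over TM (adjusted p 0.939). For NAC over Control it was -0.21 ± 0.15 (adjusted p 0.662), and -0.38 without library 4.

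The other 2 ligases were Fbxo21 and Nedd4. Fbxo21, on chr5:117976730-118010201 (plus strand), averaged 11.8 ± 1.26 CPM in TM+NAC, 11.4 ± 1.91 in TM, 11.9 ± 1.58 in NAC and 10.7 ± 1.13 in Control (SD, n = 5 each). Its log2 folds over Control were 0.14 for TM+NAC, 0.089 for TM and 0.16 for NAC, each with an SE of 0.12. Nedd4, a HECT-type ligase with many membrane protein substrates, lies on chr9:72662346-72749852 (plus strand) and ranged from 369 to 452 CPM in TM+NAC, 347 to 446 in TM, 394 to 535 in NAC and 325 to 489 in Control. Its log2 folds over Control were 0.038 for TM+NAC, 0.017 for TM and 0.14 for NAC, each with an SE of 0.11, and the highest NAC value was again that of library 4, without which the NAC log2 fold was 0.067.

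**Figure D2:**
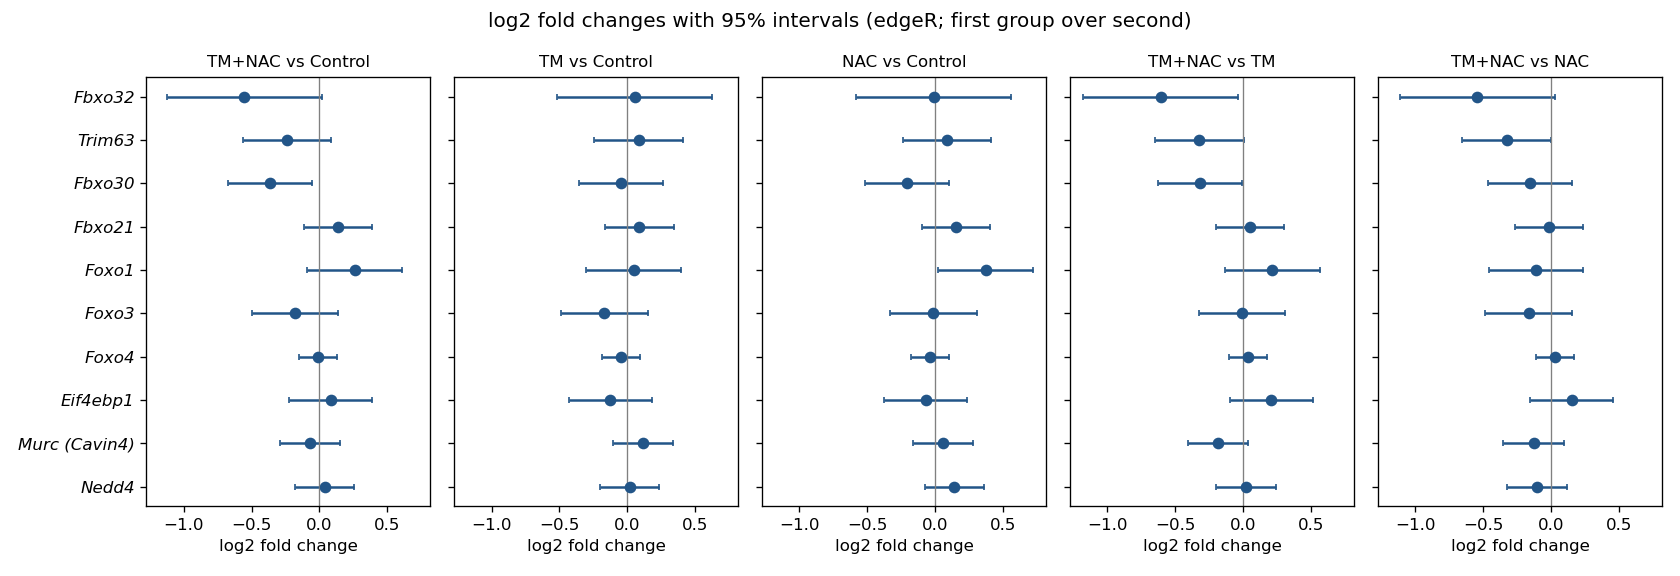
log2 fold changes (x axis) of the 10 genes with 95% intervals from edgeR, the first named group over the second, in 5 comparisons. Points for Fbxo32, Trim63 and Fbxo30 lie left of 0 in TM+NAC over Control (-0.55, -0.24 and -0.37) and over TM, while the points for TM over Control lie between -0.17 and 0.12.

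The FoxO genes had log2 folds of -0.17 to 0.046 for TM over Control. Foxo1, on chr3:52268336-52353221 (plus strand), had 14.17, 13.78, 20.34, 17.29 and 12.47 CPM in TM+NAC and 17.03, 14.52, 13.45, 11.64 and 10.62 CPM in TM. It had 23.05, 13.47, 15.76, 20.02 and 11.98 CPM in NAC and 12.20, 11.43, 14.54, 13.38 and 13.60 CPM in Control. In NAC, 3 of 5 libraries exceeded every Control library, and in TM+NAC 2 did. The log2 fold was 0.37 ± 0.17 for NAC over Control (interval 0.022 to 0.72, unadjusted p 0.0384, edgeR adjusted p 0.638), 0.26 ± 0.17 for TM+NAC over Control (adjusted p 0.966) and 0.046 ± 0.17 for TM over Control (adjusted p 0.999). The lowest values with any 1 library left out were 0.23 for NAC (without NAC library 1) and 0.15 for TM+NAC (without TM+NAC library 3). Foxo1 shares 674 exon bases on the opposite strand with Gm20402, for which no row was analysed here.

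Foxo3, on chr10:42181841-42276752 (minus strand), had 20.14, 17.50, 21.24, 19.88 and 20.65 CPM in TM+NAC, 23.65, 20.43, 17.69, 21.44 and 16.80 CPM in TM, 24.08, 18.73, 23.45, 26.43 and 18.77 CPM in NAC, and 20.07, 16.61, 21.22, 34.58 and 20.15 CPM in Control. Control library 4 was far above the other controls, which reached 21.2 CPM. The log2 fold was -0.18 ± 0.15 for TM+NAC over Control, -0.17 ± 0.15 for TM and -0.014 ± 0.15 for NAC (edgeR adjusted p 0.997, 0.999 and 0.979). Without that library the TM+NAC value was 0.031, the TM value 0.040 and the NAC value 0.19. Foxo4, on chrX:101254528-101260873 (plus strand), was the steadiest member, with means of 146 ± 9.02 CPM in TM+NAC, 142 ± 7.44 in TM, 143 ± 8.09 in NAC and 147 ± 12.4 in Control (SD, n = 5 each). Its intervals were the narrowest: the log2 fold over Control was -0.009 for TM+NAC (-0.15 to 0.13), -0.045 for TM (-0.18 to 0.095) and -0.039 for NAC (-0.18 to 0.10).

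Eif4ebp1 binds the cap-binding initiation factor and holds back translation until mTOR phosphorylates it. It lies on chr8:27260329-27276674 (plus strand) and averaged 26.9 ± 3.79 CPM in TM+NAC, 23.3 ± 5.67 in TM, 24.2 ± 2.01 in NAC and 25.4 ± 4.81 in Control. Of its pairwise log2 folds the largest was 0.21 ± 0.15 for TM+NAC over TM (interval -0.097 to 0.51, edgeR adjusted p 0.939), and all 5 TM+NAC libraries lay above the TM mean. With 1 library left out this fold ranged from 0.12 without TM library 2 to 0.36 without TM library 4. Murc (cavin-4), a muscle-specific member of the cavin coat of caveolae, lies on chr4:48663514-48673502 (plus strand). It had 135.1, 144.6, 139.9, 148.0 and 116.7 CPM in TM+NAC and 162.7, 158.1, 160.8, 144.8 and 151.9 CPM in TM. It had 136.6, 136.6, 150.0, 205.4 and 118.6 CPM in NAC and 158.4, 133.6, 143.7, 135.3 and 146.9 CPM in Control. All 5 TM libraries lay above the Control mean and 2 above every control, and 4 of 5 TM+NAC libraries lay below every TM library. The log2 fold was -0.19 ± 0.11 for TM+NAC over TM (interval -0.41 to 0.037, adjusted p 0.939) and 0.12 ± 0.11 for TM over Control (interval -0.11 to 0.34, adjusted p 0.999).

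Over the 10 members the median log2 fold was -0.039 for TM+NAC over Control, 0.032 for TM over Control, 0.023 for NAC over Control, 0.0062 for TM+NAC over TM and -0.12 for TM+NAC over NAC. Without NAC library 4 the last value was -0.031 and that for NAC over Control -0.072. The medians also moved with scaling. With library totals only they were 0.032, 0.027, 0.020, 0.087 and -0.035 in the same order. With limma on log2(FPKM + 1) they were 0.078, 0.067, 0.074, 0.051 and -0.045. Over all tested genes and all libraries the median in the main edgeR fit was -0.0059, -0.00054, 0.00031, 0.0021 and -0.0026 in the same order. No member had groups that did not overlap in any comparison of a pair of groups, against 2.2% of tested genes in TM+NAC against Control, 0.443% in TM against Control, 0.598% in NAC against Control, 1.8% in TM+NAC against TM and 2.63% in TM+NAC against NAC. The comparisons share libraries, so their values are not separate evidence.

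Levels between genes were compared per length, in FPKM over all 20 libraries. Trim63 (62.7 ± 11.8 FPKM, SD) and Murc (60.4 ± 6.96) came first, with Trim63 above Murc in 12 of 20 libraries. Fbxo32 (36.6 ± 12.7 FPKM) and Foxo4 (35.1 ± 2.19) followed, with Fbxo32 above Foxo4 in 8 of 20, and Nedd4 (27.8 ± 3.21) came next. Eif4ebp1 (9.64 ± 1.64 FPKM) stood alone, with no overlap with its neighbours in either direction. Foxo3 (2.37 ± 0.414 FPKM) and Fbxo30 (2.28 ± 0.396) overlapped, with Foxo3 the higher in 8 of 20 libraries, and Fbxo21 (1.75 ± 0.236) and Foxo1 (1.44 ± 0.333) were lowest.

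Among the FoxO genes, Foxo4 took 86.9% ± 1.24 (SD over 20 libraries, range 84.0% to 89.4%) of the summed FPKM of Foxo1, Foxo3, Foxo4 and Foxo6. Foxo3 took 5.87%, Foxo6 3.69% and Foxo1 3.56%. Trim63 and Fbxo32 ranked at the 95.3 and 92.3 percentile of FPKM among tested genes and Foxo4 at the 92.1 percentile, against the 31.3 percentile for Foxo3 and 13.3 for Foxo1.

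**Figure D3:**
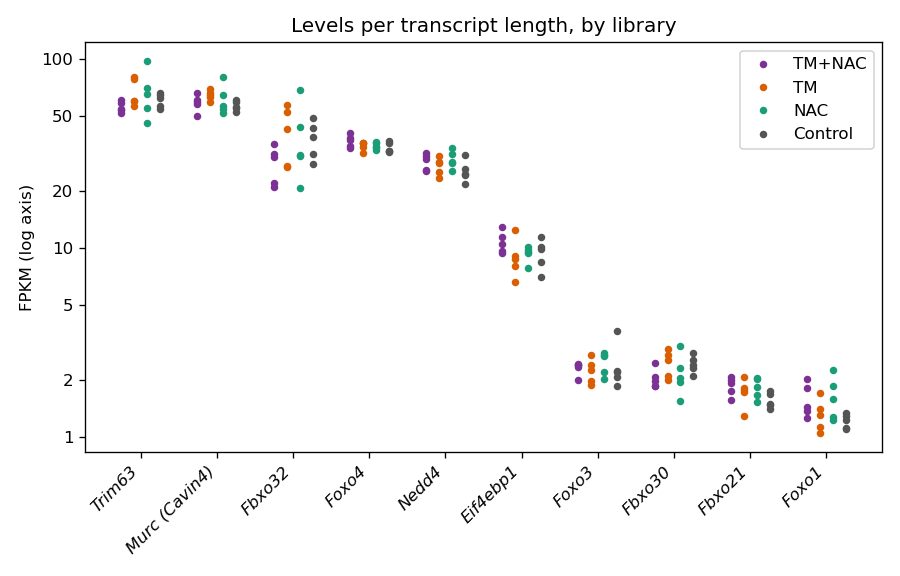
FPKM (y axis, log scale) of the 10 genes in each of the 20 libraries, ordered by mean and coloured by group. Trim63, Murc, Fbxo32, Foxo4 and Nedd4 have means of 27.8 FPKM and over, Eif4ebp1 lies between at 9.64, and Foxo3, Fbxo30, Fbxo21 and Foxo1 have means of 2.37 FPKM and under.

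The members varied to very different degrees between libraries of a group. The coefficient of variation estimated by edgeR after counting error was 30.0% for Fbxo32, at the 93.9 percentile of tested genes, and 8.54% for Foxo4, at the 3.7 percentile, against a median of 13.8%. Foxo1 (18.9%), Trim63 (17.7%), Foxo3 (17.4%), Fbxo30 (16.8%) and Eif4ebp1 (16.6%) varied more than that median, Fbxo21 matched it at 13.8%, and Murc (12.5%) and Nedd4 (12.3%) varied less.

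Fbxo32 and Trim63 rose and fell together between libraries. With group means removed, the Pearson r of their log2 CPM over 20 libraries was 0.887 and Spearman's rho 0.86 (permutation test within groups, p 3e-05 and 0.00013, adjusted p 0.00135 and 0.00585 over 45 pairs of members). Without NAC library 4 and TM library 2, the 2 farthest from the median of Fbxo32, r was 0.791, and leaving out any 1 library gave 0.824 to 0.913. NAC library 4 was the highest of all 20 in both genes, and TM libraries 2 and 4 came next in both.

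**Figure D4:**
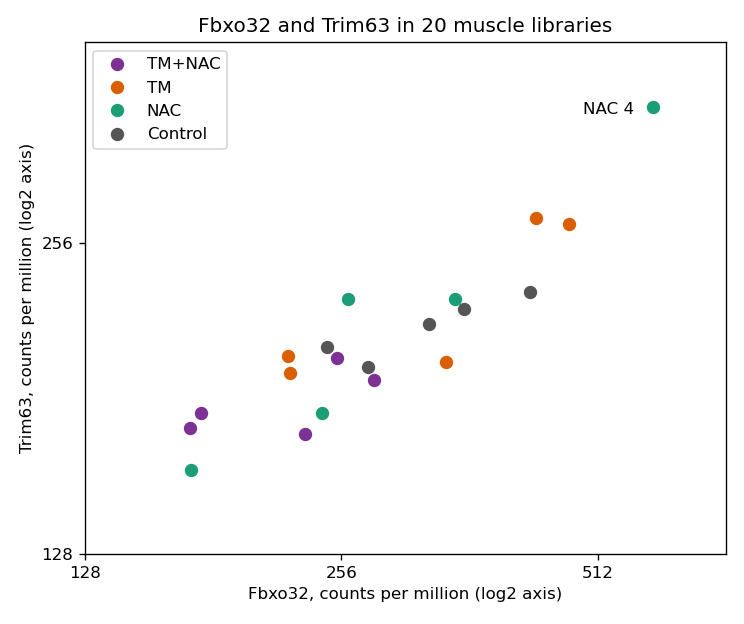
Trim63 against Fbxo32 in CPM (both axes log2) in the 20 libraries, coloured by group. The points rise together (r 0.903 before group means are removed), NAC library 4 is at the upper right with 593.7 and 346.2 CPM, and the 5 TM+NAC libraries lie at 169.9 to 279.7 CPM of Fbxo32.

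Of the 45 pairs, 34 had a positive r, the median was 0.291, 11 had an unadjusted p under 0.05 and 4 passed after adjustment, all positive. Beside Fbxo32 and Trim63 these were Foxo3 with Nedd4 (r 0.793, rho 0.69, permutation p 0.00057 and 0.00299, adjusted p 0.0128 and 0.0448), Foxo4 with Murc (r 0.634, rho 0.605, permutation p 0.00153 and 0.00601, adjusted p 0.0229 and 0.0546) and Foxo1 with Nedd4 (r 0.609, rho 0.687, permutation p 0.00433 and 0.00158, adjusted p 0.0487 and 0.0355). Without the 2 libraries farthest from the median of the first gene, r was 0.652, 0.682 and 0.772 for these 3 pairs, and Foxo3 with Nedd4 no longer passed (adjusted p 0.0613), while Foxo4 with Murc (0.0427) and Foxo1 with Nedd4 (0.00742) did. Without NAC library 4, 2 of the 4 pairs still passed, Fbxo32 with Trim63 (adjusted p 0.0166) and Foxo3 with Nedd4 (0.0439), while Foxo4 with Murc (0.112) and Foxo1 with Nedd4 (0.0649) did not. Fbxo32 had an r of 0.20 with Foxo1, 0.48 with Foxo3 and 0.29 with Foxo4, and none of these passed.

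**Figure D5:**
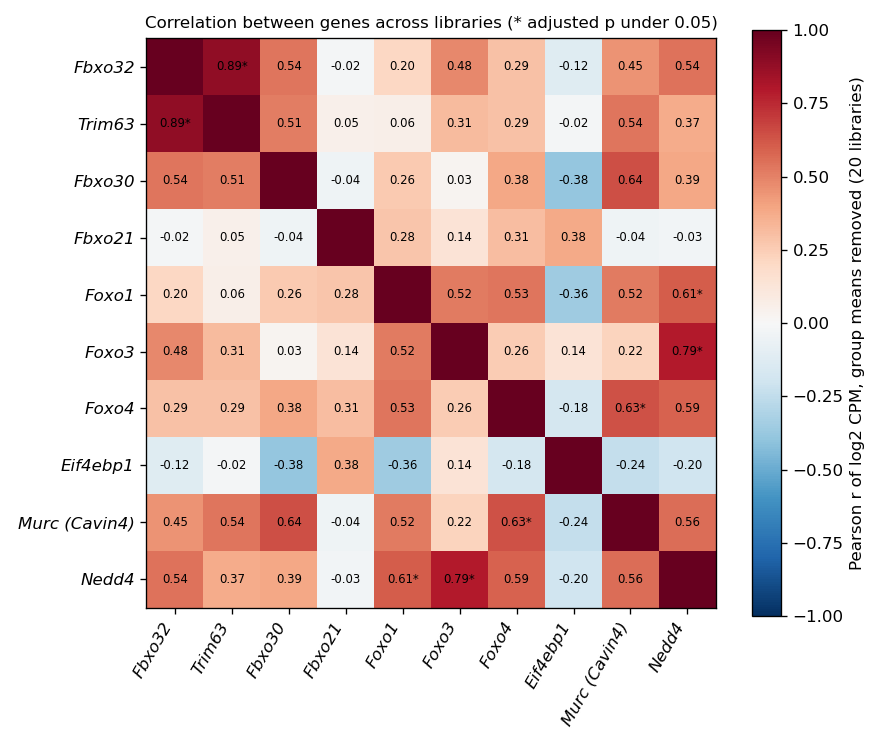
Pearson r between each pair of the 10 genes over 20 libraries, from log2 CPM with group means removed (colour scale from -1 to 1, stars mark an adjusted p under 0.05). Fbxo32 with Trim63 is the highest at 0.89, Nedd4 has stars with Foxo1 and Foxo3, and Eif4ebp1 has negative values with most genes.

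Nedd4, Foxo1 and Foxo3 also correlated with the balance of long and short transcripts in the libraries. Among the members they have the most CPM for their FPKM, and so the longest transcripts. Their means were 413 CPM at 27.8 FPKM, 14.7 at 1.44 and 21.2 at 2.37, against 302 at 36.6 for Fbxo32 and 211 at 62.7 for Trim63. Fbxo32 was not far below Foxo3 in this. Long genes make up the upper part of such a balance, so a positive r of a long gene with it may be partly built in. Whether the r of Nedd4, Foxo1 and Foxo3 exceeds that of other long genes was not tested. Libraries differed in the balance of long and short transcripts, measured as the mean log2 CPM of tested genes in the top quartile of transcript length minus that of the bottom quartile, a measure chosen after the data had been seen. Over 20 libraries with group means removed, it correlated with Nedd4 (r 0.891, rho 0.907, permutation p 1e-05, the smallest the permutations can give, adjusted p 0.0004 over 40 relations), Foxo1 (r 0.697, rho 0.764, permutation p 0.0029 and 0.00027, adjusted p 0.0387) and Foxo3 (r 0.663, rho 0.645, permutation p 0.00106 and 0.0087, adjusted p 0.0212). Without NAC library 4 and TM library 1, r was 0.867, 0.658 and 0.622. For Fbxo32 (r 0.52, rho 0.377, permutation p 0.0765 and 0.162, adjusted p 0.143) and Trim63 (r 0.35, rho 0.114, permutation p 0.331 and 0.689, adjusted p 0.378) the relation did not pass, and without the same 2 libraries r was 0.21 and -0.139. Murc, short by the same measure (146 CPM at 60.4 FPKM), had r 0.652 (rho 0.499, permutation adjusted p 0.136), close to that of Foxo3. Fbxo30 had r 0.551 (rho 0.481, permutation adjusted p 0.143). Without the same 2 libraries these were 0.248 and 0.057. Library total, mitochondrial share and Snap25 level passed with no member (lowest permutation adjusted p 0.103), but some r were large. Library total had r 0.756 with Murc, 0.667 with Trim63 and 0.628 with Fbxo32, and 0.217, 0.391 and 0.437 without NAC libraries 4 and 2. Snap25 had r -0.707 with Murc and -0.704 with Fbxo30, and -0.292 and -0.374 without NAC library 4 and Control library 2. The part of these measures in the member correlations was not tested.

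The genes whose pattern over the 20 libraries was most like that of Fbxo32, by Pearson r with group means removed, were Klhl38 (r 0.91), Trim63 (0.887), Retreg1 (0.833), Ddi2 (0.833) and Fam214a (0.815), the last 3 at 0.73 to 0.756 without NAC library 4. Klhl38, a muscle kelch-domain gene, averaged 12.9 ± 4.58 CPM in TM+NAC, 24.0 ± 8.27 in TM, 19.0 ± 10.9 in NAC and 20 ± 6.59 in Control (SD, n = 5 each), and its r with Fbxo32 was 0.877 without NAC library 4. Retreg1 is an endoplasmic reticulum receptor of autophagy and Ddi2 a ubiquitin-dependent protease. Klhl38 and Retreg1 lie on chromosome 15, as does Fbxo32, and the part of position in these correlations was not tested. Those most like Trim63 were Fbxo32, Klhl38 (0.842), Bbs7 (0.842), Trmt10b (0.841) and Nifk (0.801), and without NAC library 4 the last 4 were at 0.792, 0.652, 0.701 and 0.577. Those most like Foxo1 were St3gal2 (0.905), Abcc4 (0.876), Dst (0.863), Luzp1 (0.861) and Epg5 (0.856), all 0.842 or more without NAC library 4. Those most like Murc were Hnrnpc (0.876), Tmem127 (0.867), Nup88 (0.862), Ddx6 (0.857) and Senp6 (0.842), and without NAC library 4 their r was between 0.514 and 0.716.

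Known FoxO target genes were set beside all tested genes for their likeness to Fbxo32, as a description. Of 25 tested targets, 9 (36.0%) had an r over 0.5 with Fbxo32 and the median r was 0.416, against 9.94% and 0.0059 over all other tested genes. Without NAC library 4, 3 of 25 (12.0%) did and the median was 0.302, against 1.56% and -0.00091. Those 3 were Pdk4, the kinase that shuts pyruvate dehydrogenase (r 0.786, and 0.656 without that library), Gabarapl1, an autophagosome protein (0.636 and 0.539), and Gadd45a, a stress-induced growth arrest gene (0.575 and 0.540). Pdk4 averaged 404 ± 242 CPM in TM+NAC, 474 ± 182 in TM, 497 ± 606 in NAC and 473 ± 259 in Control, with 1580 CPM in NAC library 4. The mitochondrial ligase Mul1 went the other way (r -0.533, and -0.134 without NAC library 4). With Foxo1 and Foxo4 the share of targets over 0.5 was 8% each, against 14.1% and 7.82% of all other tested genes, and with Foxo3 it was 24.0% against 15.0%. Without NAC library 4 the shares were 12.0% against 11.9% (Foxo1), 4.0% against 5.3% (Foxo4) and 24.0% against 13.4% (Foxo3). The median r of targets with all 20 libraries was 0.132 against -0.013 (Foxo1), -0.025 against -0.027 (Foxo4) and 0.296 against -0.029 (Foxo3). The other lists described below also had positive median r with Fbxo32. These were 0.337 for FoxO cofactors (26.3% over 0.5), 0.306 for other ligases (11.5%), 0.246 for insulin, AKT and mTOR genes (7.41%) and 0.102 for caveolar genes (22.2%). Without NAC library 4 these medians were 0.026, 0.075, 0.085 and 0.048, with 5.26%, 3.85%, 0% and 0% over 0.5.

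No gene of the wider pathway passed the test. Over 5 lists with 105 tested genes, edgeR called 0 in each of the 6 comparisons. At an unadjusted p under 0.05 there were 6 in TM+NAC against Control (6.38% of all tested genes), 4 in TM against Control (3.37%), 6 in NAC against Control (7.44%), 8 in TM+NAC against TM (5.19%), 15 in TM+NAC against NAC (11.9%) and 7 for the interaction (7.28%). DESeq2 called 1 gene in each of 2 comparisons, NAC against Control (Sgk1, described below) and TM+NAC against TM.

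Of 28 other muscle ligases, deubiquitinases and ubiquitin genes, 26 were tested, with a median log2 fold of -0.024 for TM+NAC over Control and 0.018 for TM over Control. Mdm2, the ligase of p53, had -0.53 ± 0.20 for TM+NAC over Control (edgeR adjusted p 0.535). Trim32 had 0.23 ± 0.13 for TM+NAC over Control and 0.30 ± 0.13 for TM over Control, and Asb2 had 0.13 ± 0.11 for TM over Control (edgeR adjusted p 0.905, 0.999 and 0.999).

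Of 26 FoxO targets 25 were tested, with medians of 0.0061 for TM+NAC over Control and 0.003 for TM over Control. The smallest p values in TM+NAC over Control were those of Igfbp5 (log2 -0.27 ± 0.15), Mul1 (0.17 ± 0.11) and Txnip (0.24 ± 0.16). In TM over Control they were those of the autophagy kinase gene Ulk1 (0.11 ± 0.063), Gadd45a (-0.27 ± 0.15) and Txnip (0.26 ± 0.16), with edgeR adjusted p values of 0.909 or more in both comparisons.

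Of 28 genes of insulin, AKT and mTOR signalling 27 were tested, with medians of -0.0011 for TM+NAC over Control and 0.014 for TM over Control. In TM+NAC over Control, Akt1 had a log2 fold of 0.21 ± 0.070, Rictor, a subunit of mTOR complex 2, -0.28 ± 0.11, and Ddit4, an inhibitor of mTOR, 0.81 ± 0.37 (edgeR adjusted p 0.405, 0.561 and 0.721). In TM over Control, Pik3ca had 0.23 ± 0.13, Sgk1 0.21 ± 0.15 and Pik3r1 -0.29 ± 0.24 (edgeR adjusted p 0.999 each). Sgk1, a kinase that phosphorylates FoxO proteins, had 0.62 ± 0.15 for NAC over Control, with an adjusted p of 0.141 in edgeR and 0.00923 in DESeq2.

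Of 20 FoxO cofactors and regulators 19 were tested, with medians of -0.057 for TM+NAC over Control and 0.056 for TM over Control. In TM+NAC over Control the smallest p values were those of Ywhaz, which binds phosphorylated FoxO (0.25 ± 0.091), the kinase Stk4 (0.23 ± 0.11) and the deacetylase Sirt1 (-0.28 ± 0.14), with edgeR adjusted p values of 0.467, 0.792 and 0.834. In TM over Control they were those of Smad3 (0.37 ± 0.12), Stk4 (0.25 ± 0.11) and Foxk2 (0.10 ± 0.072), with an adjusted p of 0.999 each. Of 10 genes of the caveolar coat and its partners 9 were tested, with medians of -0.0053 for TM+NAC over Control and -0.070 for TM over Control. Ehd2 had log2 folds of -0.14 ± 0.096 and -0.13 ± 0.096 in those comparisons, Prkcdbp 0.21 ± 0.16 and Dysf -0.11 ± 0.085 in the first, and Pacsin3 -0.095 ± 0.070 and Cavin1 -0.11 ± 0.086 in the second, with edgeR adjusted p values of 0.986 or more.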

How the data were processed

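Poly(A) RNA of 20 gastrocnemius libraries was sequenced with a dUTP strand-marking kit, per the labels' protocols. Per the submitters' processing notes, the tools were cutadapt 1.9, FastQC, HISAT2 2.2.1 and StringTie, with the GRCm38 build. The authors deposited one table of whole-number, unnormalized counts per gene and library. They also deposited FPKM values, scaled by length and depth. How counts were taken is not given in the sources used here.

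Groups came from the treatment labels. Counts were scaled by TMM and fitted in a single edgeR 4.0.16 quasi-likelihood model of the 4 groups (R 4.3.3), with two-sided tests adjusted by Benjamini-Hochberg over the 9696 genes averaging 1 FPKM or more, and passing at an adjusted p under 0.05. Correlations used log2 CPM (prior count 0.5) and 100000 permutations within groups. No libraries of a group were duplicates (lowest chi-square per degree of freedom 16.2). Symbols were matched in the table and, for Murc, through the synonyms of a RefSeq table. Promoters came from RefSeq on GRCm38.p6.

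Alternatives were median-ratio scaling, library totals, no filter, an average of 5 FPKM or more, DESeq2 1.42.0, limma 3.58.1 on log2(FPKM + 1) and log2(FPKM + 0.1), only the groups compared, limma voom with library weights, the replicate number as a block, leaving out TM 1 and NAC 4, and leaving out each library. From each pathway list the 3 smallest p values in TM and in TM+NAC against Control were named, and for Fbxo32, Trim63, Foxo1 and Murc the 5 genes most like each. The separate result of 1 gene that this rule names is not reported here, and it stays in every fit and count. The members and lists were chosen with earlier results of these data known.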

Additional observations from a re-analysis of the deposited data

Results flagged for a closer look

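Foxo3 in Control library 4 was at 34.6 CPM, far from the other 4 controls at 16.6 to 21.2 CPM: the gap to the nearest was 0.743 of the group's range, above the limit of 0.71 for 5 libraries. The same library had the highest Nedd4 of the controls, at 489 CPM. Of 40 combinations of gene and group tested this was the one to pass the limit, and chance passes about 1 in 20.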

How the results depend on the processing

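Member calls stayed at 0 in all 135 recounts over the 6 comparisons. Of 1326 recomputed member folds 0 passed, and the smallest adjusted p was 0.0894 (limma voom with library weights), for Fbxo30 in TM+NAC over Control at a log2 fold of -0.43 ± 0.11. That was the largest drop of the settings that did not leave out 1 library. The smallest was -0.17, with limma on log2(FPKM + 1), and the group means of Fbxo30 were 2.05 FPKM in TM+NAC and 2.43 in Control. The sign changed in 99 recomputed folds from 27 of 60 results, whose log2 folds were at most 0.18 in size.

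The replicate number as a block gave 0 members called in each comparison. Same-numbered libraries of different groups had correlations of -0.248 to 0.369 between their deviations (median 0.0519, 30 pairs, 10 over 0.1), and 5 of 20 libraries correlated best with a library of their own number, so the numbers were not taken as pairing.

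The number of correlated member pairs passing was 4. It was 2 on log2(FPKM + 1), 5 without the 2 farthest libraries and 5 with group means kept. Leaving out 1 library at a time gave 2 to 9: 2 without Control 1, NAC 3, NAC 4 or TM+NAC 5, 7 without Control 4 and 9 without NAC 1. The leave-out and the kept means were added after the data had been seen. The cause was not tested. Among all genes, calls for TM+NAC over Control were 34 with edgeR, 77 with DESeq2, 66 with voom and 566 without the filter, and for TM over Control 0, 19, 2 and 197. Of the pathway lists, 1 gene passed for NAC over Control in 2 alternatives and 1 for TM+NAC over TM in 5. Low counts did not limit the members, but 5 libraries a group left SEs of 0.067 (Foxo4) to 0.27 (Fbxo32).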
